A study of Homo sapiens with 36 samples.

Results

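The replication-dependent and replacement histone mRNAs were followed through a polysome gradient of HUES6 cells, a human embryonic stem cell line in wide use. They were chosen by transcript ID, 1 transcript for each of 10 genes, among 223367 transcripts in the deposited table. The replication-dependent set was HIST1H4C (ENST00000377803.3), HIST1H1C (ENST00000343677.3), HIST1H1E (ENST00000304218.5), HIST1H1B (ENST00000331442.4) and HIST1H1D (ENST00000244534.6). The replacement set was H2AFZ (ENST00000296417.5), H3F3B (ENST00000254810.8), H3F3A (ENST00000366815.7), H1FX (ENST00000333762.5) and H1F0 (ENST00000340857.3). All 10 IDs were found and all 10 passed the filter on low values. The table lists no gene names, and other transcripts of these genes, which can share reads with them, were not named.

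HUES6 cells lacking RBPMS, a protein that binds RNA, by knockout (KO) were compared with unmodified HUES6 cells (WT). Both were grown in FTDA medium and exposed to cycloheximide, which holds ribosomes on mRNA, at 100 ng/ml for 5 min before lysis. Lysates were sampled as unfractionated Input and as the 40S, 80S, disome, Polysome1 and Polysome2 fractions, in 3 KO and 3 WT cultures, which gave 36 libraries in 12 groups of 3. Whether the KO line is 1 clone, and whether cultures were grown on separate days, could not be read from the labels, so p-values measure the spread between these samples only. Values were TPM, an abundance scaled for transcript length that sums to 1000000 in every library, so that each value is a share of the fraction's RNA and not an amount per cell. In these bulk samples, fewer cells of a type and less RNA per cell cannot be told apart.

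Histones package DNA into nucleosomes. H2A, H2B, H3 and H4 form the core, and linker histones of the H1 family bind where DNA enters and leaves it. Replication-dependent histone genes are transcribed mainly in S phase, and their mRNAs normally end in a conserved stem-loop bound by SLBP and not in a poly(A) tail. Replacement histone genes are transcribed throughout the cell cycle and give ordinary polyadenylated mRNAs. The libraries were made with a stranded mRNA kit, a type that captures poly(A) tails. How far capture set the level of each member was not tested.

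Promoter sequence was not used in the choice of members. For each listed promoter that is printed, 120 bases are given, from 130 to 11 bases before the annotated start (RefSeq sequence, GRCh38.p14, 5′ to 3′ in the direction of transcription). A promoter was listed for 8 of the 10 members. HIST1H4C and H1F0 had no entry, and H3F3A had 4 annotated starts and is not printed. Capitals mark 4 motifs on either strand: the histone H1 box AAACACA, the CCAAT box, and the TATA forms TATATA as well as TATAAA, which can overlap.
HIST1H1C chr6:26056481-26056600, minus strand: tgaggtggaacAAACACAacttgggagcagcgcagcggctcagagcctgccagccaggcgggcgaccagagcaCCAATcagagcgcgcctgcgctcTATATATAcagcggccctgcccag
HIST1H1E chr6:26156199-26156318, plus strand: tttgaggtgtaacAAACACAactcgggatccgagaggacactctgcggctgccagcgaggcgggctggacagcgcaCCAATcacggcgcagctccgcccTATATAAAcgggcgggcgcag
HIST1H1B chr6:27867599-27867718, minus strand: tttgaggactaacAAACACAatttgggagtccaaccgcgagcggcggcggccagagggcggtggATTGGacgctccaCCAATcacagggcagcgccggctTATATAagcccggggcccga
HIST1H1D chr6:26234998-26235117, minus strand: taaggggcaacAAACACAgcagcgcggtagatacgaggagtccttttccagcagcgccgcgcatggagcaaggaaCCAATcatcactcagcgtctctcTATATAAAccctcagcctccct
H2AFZ chr4:99950286-99950405, minus strand: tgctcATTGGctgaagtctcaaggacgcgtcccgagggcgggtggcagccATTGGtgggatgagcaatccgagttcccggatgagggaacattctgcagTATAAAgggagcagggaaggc
H3F3B chr17:75779790-75779909, minus strand: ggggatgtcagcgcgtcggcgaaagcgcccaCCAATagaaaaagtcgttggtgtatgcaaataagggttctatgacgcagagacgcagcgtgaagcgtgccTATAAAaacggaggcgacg
H1FX chr3:129316297-129316416, minus strand: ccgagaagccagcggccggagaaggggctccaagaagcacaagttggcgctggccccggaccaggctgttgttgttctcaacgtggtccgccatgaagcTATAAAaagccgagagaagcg

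The 4 replication-dependent linker histone promoters carried AAACACA starting 117 to 119 bases before the start, CCAAT at 53 to 57 bases and TATATA at 30 to 34 bases, read in the direction of transcription. HIST1H1C and HIST1H1B each had 1 further AAACACA outside the printed bases. HIST1H1B also had CCAAT on the opposite strand at 66 bases. TATAAA was in 2 of these 4 genes, HIST1H1E and HIST1H1D. Among the replacement promoters, CCAAT and TATAAA were each in 3 of 4 genes. AAACACA was in 1 of 4 genes (H3F3A, on the opposite strand at 2 of its starts, 1 of them after the start) and TATATA in 0 of 4. H2AFZ, H3F3B and H1FX had TATAAA at 29 to 31 bases. Over all 35116 listed promoters of 300 bases, 5.64% held AAACACA, 34.61% CCAAT, 3.99% TATATA and 11.53% TATAAA. A match describes these letters and does not show that a factor binds. With HIST1H4C and H1F0 unlisted, the 4 replication-dependent genes here are all linker histone genes, and H1FX is the only replacement linker histone gene. The motif counts therefore describe the listed genes and not the 2 sets.

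Depth behind the values is unknown, because TPM keeps no record of it. The libraries held 8956 to 38389 transcripts at 1 TPM or more. KO Input replicates 1 and 2 stood apart, with a Pearson's r over transcripts of 0.462 and 0.590 to the WT Input mean, against 0.911 for KO Input replicate 3. They lay nearer to the WT disome mean, at 0.717 and 0.834, as did every other library of KO replicates 1 and 2. KO Input replicate 3 had an r of 0.826 to the WT disome mean, and the WT Input libraries 0.710 to 0.791. Within each of these 2 cultures, Input still had the highest r to the WT Input mean. The other fractions had 0.368 to 0.430 in KO replicate 1 and 0.427 to 0.457 in KO replicate 2. Whether KO Input replicates 1 and 2 are labelled correctly could not be settled from the files, so KO Input values are those of the libraries labelled KO Input. The cultures differed beyond Input: over the 6 fractions, the 12 libraries of KO replicates 1 and 2 had an r of 0.368 to 0.590 to the WT Input mean, against 0.680 to 0.911 in KO replicate 3. They held 9867 to 21914 transcripts at 1 TPM or more, against 16331 to 31380 in KO replicate 3, which was the highest of the 3 KO cultures on both measures in all 6 fractions. The part of this difference in the KO to WT values below was not tested. In KO disome replicate 1 the 10 most abundant transcripts took 70.5% of all TPM, and WT 40S replicate 3 held the lowest number of transcripts, 8956. No transcript ID was matched to RBPMS or to pluripotency markers, so the knockout and the cell type were taken from the labels.

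The 2 sets lay at different levels in every library. Members of the replacement set had 1.54 to 1318 TPM over 180 values, and none was under 1 TPM. HIST1H1C, which encodes linker histone H1.2, had 6.04 to 126 TPM. The other 4 replication-dependent transcripts had 0.0583 to 9.22 TPM over 144 values, and 69 of these were under 1 TPM. HIST1H1C made up a median of 83.0% of the replication-dependent sum, with a range of 28.4% (KO disome replicate 1) to 95.1%.

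Within each set the members differed. H3F3A and H2AFZ had the highest medians over the 36 libraries, 445 and 256 TPM, and stood at a median percentile of 99.5 and 99.2 among the 51052 tested transcripts. H3F3A and H3F3B encode the same H3.3 protein, and H3F3B had a median of 75.1 TPM. H1FX and H1F0, linker histones outside the S phase set, had medians of 96.0 and 48.9 TPM. HIST1H1C had a median of 22.1 TPM (percentile 92.9). The medians of HIST1H4C, HIST1H1E, HIST1H1B and HIST1H1D were 1.04, 1.31, 0.900 and 1.26 TPM. Estimates near 1 TPM carry large relative error, and no counting interval can be given.

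**Figure D1:**
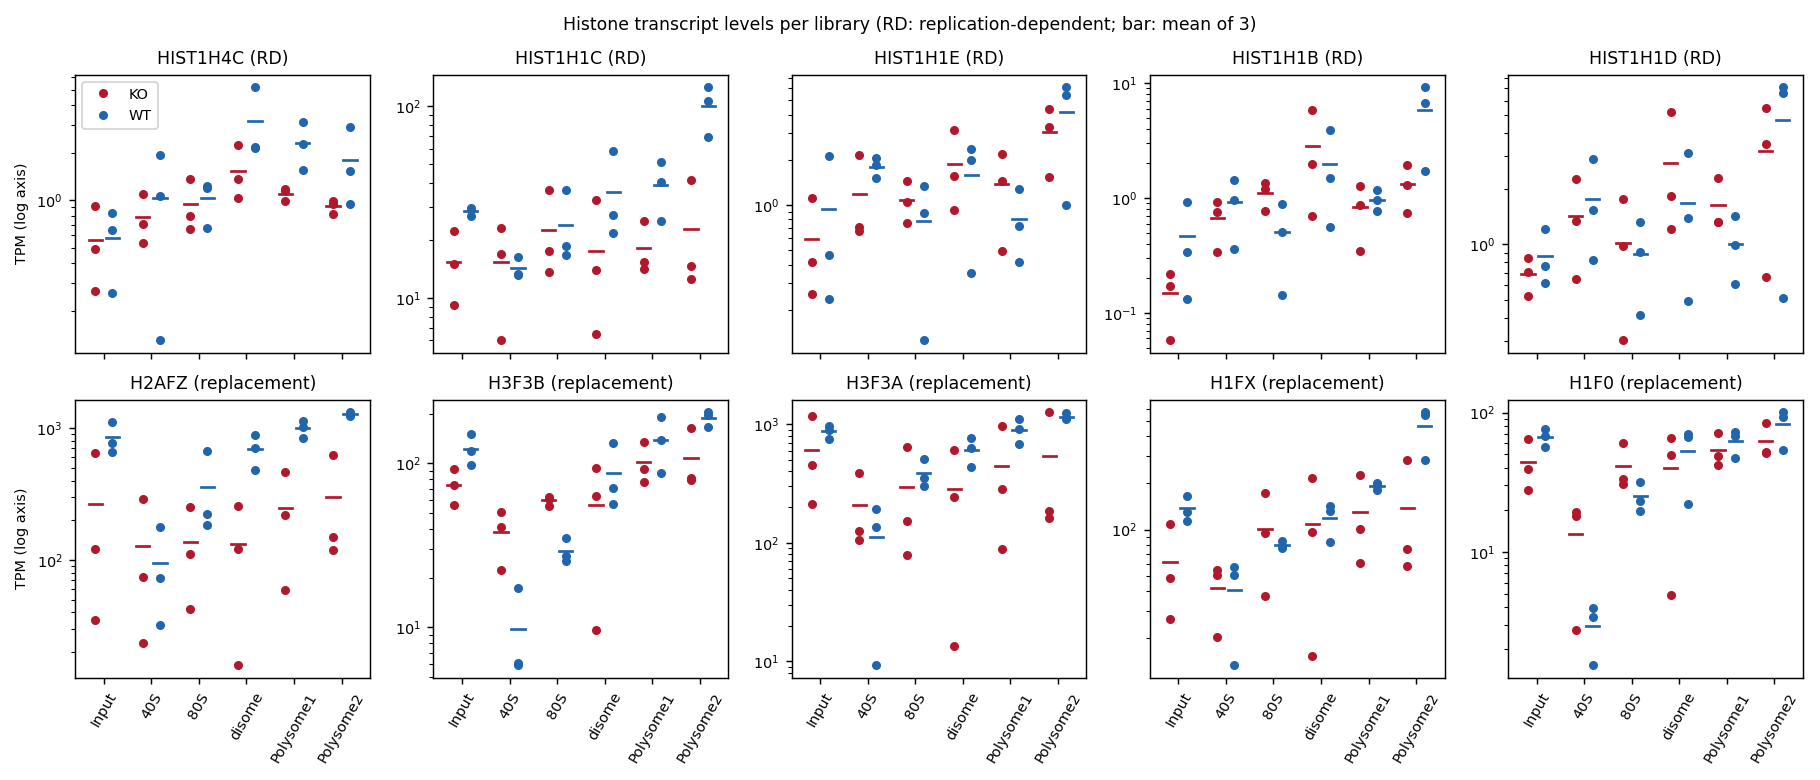
TPM (log axis) of each of the 10 transcripts in each library, by fraction, with KO left of WT and a bar at the mean of 3; each panel has its own axis. In WT, the mean is highest in Polysome2 for every transcript except HIST1H4C, which is highest in disome, and the replacement transcripts are lowest in 40S.

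The gap between the sets was described for each library as the mean log2(TPM + 1) of the replication-dependent transcripts minus that of the replacement transcripts. It was negative in 36 of 36 libraries, from -6.67 to -1.18, with a median of -5.16. In Input it was -5.44 ± 0.91 in KO and -6.36 ± 0.44 in WT (SD, n = 3 each). In 40S it was -4.02 ± 0.14 in KO and -2.80 ± 1.26 in WT, where replicate 3 was at -1.35 and replicates 1 and 2 at -3.40 and -3.64. In 80S it was -4.73 ± 0.76 in KO and -4.98 ± 0.07 in WT. In disome it was -3.88 ± 2.34 in KO, where replicate 1 was at -1.18 and the others at -5.14 and -5.32, and -5.28 ± 0.98 in WT. In Polysome1 it was -5.24 ± 0.91 in KO and -6.12 ± 0.21 in WT, and in Polysome2 -5.05 ± 0.94 in KO and -5.64 ± 0.63 in WT. The smallest gap among WT fractions was in 40S, without overlap with the other 5 WT fractions. KO replicate 3 had a wider gap than KO replicates 1 and 2 in Input, 80S, disome, Polysome1 and Polysome2. The score over the members was not tested.

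**Figure D2:**
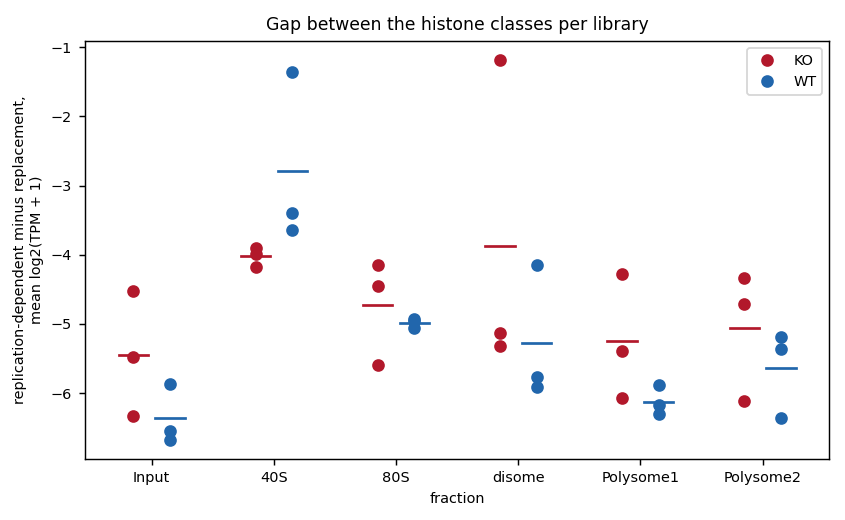
Mean log2(TPM + 1) of the 5 replication-dependent transcripts minus that of the 5 replacement transcripts, 1 point per library, with KO left of WT and a bar at the mean of 3. All 36 points lie below 0, and the WT 40S libraries lie above those of the other WT fractions.

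Summed TPM gave an order of the 12 groups for each set. The replication-dependent sum was highest in WT Polysome2, at 117 ± 39.4 TPM (SD, n = 3), then in WT disome at 44.3 ± 25.0 and WT Polysome1 at 44.2 ± 11.8. The lowest were KO 40S at 19.4 ± 9.86 and KO Input at 17.5 ± 6.77. The replacement sum was highest in WT Polysome2, at 3172 ± 255 TPM, then in WT Polysome1 at 2292 ± 360 and WT Input at 2044 ± 353, and lowest in KO 40S at 428 ± 281 and WT 40S at 260 ± 195. In each of these orders 10 of the 11 neighbouring pairs of groups overlapped, and only WT Polysome2 had no overlap with the group after it. For the replication-dependent sum the margin was narrow, with replicate 3 at 73.55 TPM in WT Polysome2 and at 73.07 TPM in WT disome.

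By a rule on likeness, the tested transcripts of at least 5 TPM on average were ranked by Pearson's r with each set's mean log2(TPM + 1) over the 12 group means. ENST00000370873.8 (r = 0.989) and ENST00000318471.4 (r = 0.990) were most like the replacement set. The highest r with the replication-dependent set was lower, 0.837, for ENST00000532772.5 and ENST00000491245.6. The files do not pair these IDs with genes, the points share libraries, and 11999 transcripts were ranked, so the values are descriptions.

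The first comparison in WT asked how the 40S fraction differs from Input. All 5 replacement transcripts were lower in WT 40S (limma, Benjamini-Hochberg adjusted p under 0.05), against 42.5% of the 51052 tested transcripts, so their count is set beside a high background. Their median log2 fold change was -3.65, against -0.95 over all tested transcripts. None of the 5 replication-dependent transcripts passed the test, with log2 fold changes of -0.95 to 0.65 and a median of 0.39. Fold changes are of TPM + 1, which understates the change of low transcripts.

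H1F0, the linker histone H1.0 that is known to build up in resting and differentiated cells, had 3.38, 3.94 and 1.54 TPM in WT 40S, against 68.0, 76.0 and 56.9 TPM in WT Input. On the log2 scale it fell by 4.15 (SE 0.70, limma adjusted p = 3.744e-05). H3F3B had 6.09, 17.5 and 5.92 TPM in WT 40S, against 97.8, 118 and 151 TPM in WT Input, and fell by 3.65 (SE 0.61, limma adjusted p = 3.003e-05). In both, every 40S library lay far below every Input library. H2AFZ, which encodes the H2A.Z variant found beside transcription start sites, had 72.4, 178 and 32.1 TPM in WT 40S, against 661, 766 and 1117 TPM in WT Input. It fell by 3.45 (SE 1.01, limma adjusted p = 0.007062). H3F3A had 135, 194 and 9.33 TPM in WT 40S, against 746, 893 and 970 TPM in WT Input, and fell by 3.74 (SE 1.10, limma adjusted p = 0.007313). H1FX, linker histone H1X, had 50.6, 57.5 and 13.4 TPM in WT 40S, against 131, 166 and 114 TPM in WT Input. It fell by 1.95 (SE 0.78, limma adjusted p = 0.04388), and under median-of-ratios scaling its difference turned to 0.64.

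In all 5 replacement transcripts the lowest 40S value was that of WT replicate 3, the library with the fewest transcripts. Without that library the calls of H2AFZ, H3F3A and H1FX ended, at log2 fold changes of -2.85, -2.41 and -1.31 (limma adjusted p = 0.05138, 0.1013 and 0.2553), and those of H1F0 (-3.86, limma adjusted p = 0.0005405) and H3F3B (-3.40, limma adjusted p = 0.0004247) held. Scaling moved both sets. The calls of the replacement set that remained were 4 after quantile normalization, without H1FX (log2 -0.51), and 2 after median-of-ratios scaling, H3F3B and H1F0 (log2 -1.14 and -1.86), where H2AFZ and H3F3A were at -0.83 and -1.14 (limma adjusted p = 0.4521 and 0.2561). After quantile normalization, which brought the median of all transcripts to 0.03, 4 of the 5 replication-dependent transcripts were called higher in 40S, and after median-of-ratios scaling all 5 were. The shares of all tested transcripts called higher under these scalings are not given, so these counts have no background beside them.

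HIST1H1C had 13.3, 16.3 and 13.1 TPM in WT 40S, against 26.8, 29.6 and 28.7 TPM in WT Input. Each 40S library was below each Input library, and the log2 difference of -0.95 (SE 0.60, limma adjusted p = 0.2087) did not pass the test and turned to 0.82 with quantile-normalized values and to 1.59 with median-of-ratios scaling. HIST1H1E, linker histone H1.4, had 2.04, 1.85 and 1.52 TPM in WT 40S, against 2.12, 0.237 and 0.464 TPM in WT Input, with overlap. HIST1H4C, a gene for core histone H4, HIST1H1B (H1.5) and HIST1H1D (H1.3) also overlapped between these fractions.

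The second comparison in WT set Polysome2, the heaviest fraction, against Input. HIST1H1B rose (log2 fold change 2.07, SE 0.46, limma adjusted p = 0.002247), the only member called, where 3.28% of all tested transcripts were higher. It had 6.73, 9.22 and 1.72 TPM in WT Polysome2, against 0.922, 0.338 and 0.133 TPM in WT Input, without overlap. Without WT replicate 2 this call ended (log2 1.64, limma adjusted p = 0.1009), as it did with quantile normalization (1.82, limma adjusted p = 0.09181), with median-of-ratios scaling (1.61, limma adjusted p = 0.1327) and in a fit of the compared groups alone (2.07, limma adjusted p = 0.05953). The median log2 fold change was 1.34 over the replication-dependent set and 0.62 over the replacement set, against -0.15 over all transcripts. HIST1H1C differed by 1.75 (SE 0.60, limma adjusted p = 0.05276), and its WT Polysome2 values of 106, 126 and 69.4 TPM all lay above the WT Input values. With culture as a random replicate block 5 members were called, the 4 replication-dependent linker histones and H1FX (log2 1.71, limma adjusted p = 0.01836). The share of 3.28% is that of the main fit. No share of all transcripts is given for the block fit, so its count has no background beside it.

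**Figure D3:**
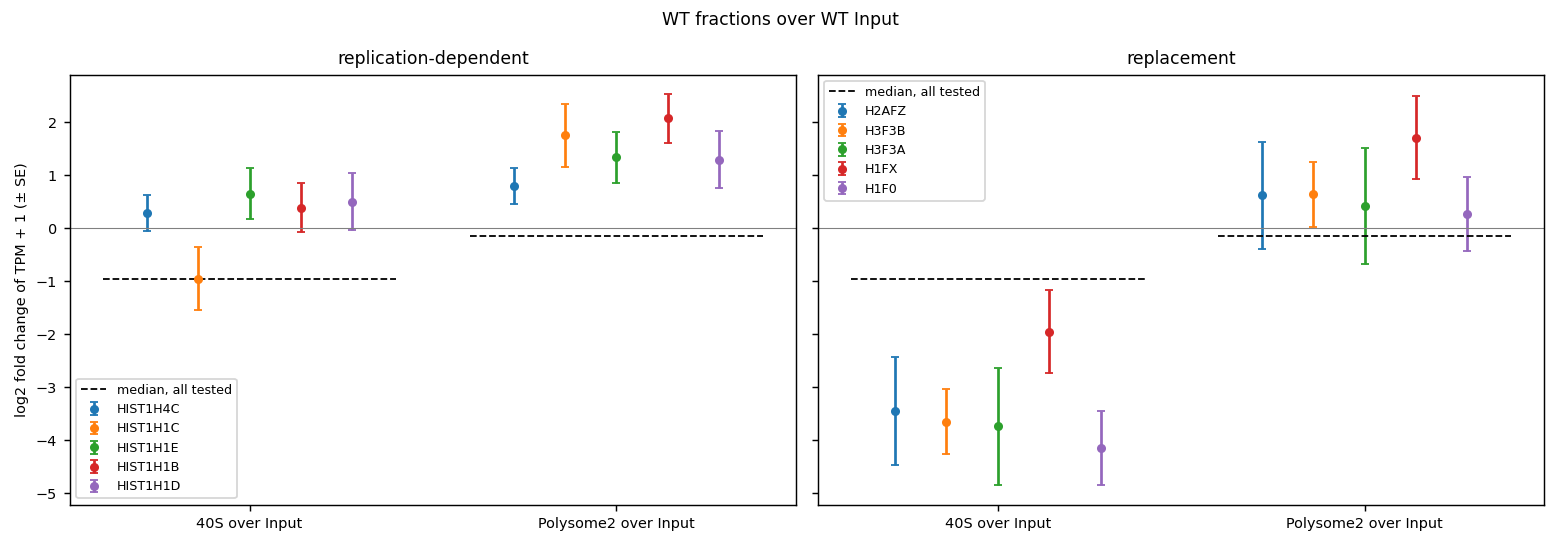
Log2 fold change of TPM + 1 (± SE from the fit) of WT 40S and WT Polysome2 over WT Input for each transcript, with a dashed line at the median of all 51052 tested transcripts. The 5 replacement transcripts lie between -4.15 and -1.95 in 40S, and the replication-dependent ones between -0.95 and 0.65.

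Polysome2 was then compared with 80S, where mRNAs carry 1 ribosome, in each genotype. In KO no member was called (limma), with log2 fold changes of -0.06 to 1.06. Of all tested transcripts 1.45% were called in KO in either direction, with 4479 at an unadjusted p under 0.05. In WT 5 members rose, 3 replication-dependent and 2 replacement, where 8.63% of all tested transcripts were higher. The median log2 fold change in KO was 0.12 over the replication-dependent and 0.75 over the replacement set, against 0.14 over all transcripts. In WT the medians were 1.40 and 2.07, against 0.23.

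H3F3B had the largest value among the members called in WT. It had 204, 166 and 196 TPM in WT Polysome2, against 27.3, 25.5 and 34.8 TPM in WT 80S, and rose by 2.66 (SE 0.61, limma adjusted p = 0.006589). H1FX had 552, 572 and 279 TPM in WT Polysome2, against 77.9, 84.4 and 76.1 TPM in WT 80S, and rose by 2.47 (SE 0.78, limma adjusted p = 0.03642). Neither gene had overlapping libraries. HIST1H1C, at the Polysome2 levels given above, had 18.7, 16.8 and 36.8 TPM in WT 80S and rose by 2.06 (SE 0.60, limma adjusted p = 0.02438). HIST1H1B had 0.502, 0.143 and 0.883 TPM in WT 80S and rose by 2.02 (SE 0.46, limma adjusted p = 0.006186). HIST1H1E had 5.38, 6.12 and 1.01 TPM in WT Polysome2, against 0.888, 0.126 and 1.34 TPM in WT 80S, and rose by 1.40 (SE 0.48, limma adjusted p = 0.04931). Its replicate 3 was lower in Polysome2 than in 80S. In HIST1H1C, HIST1H1E, HIST1H1B and HIST1H1D, WT replicate 3 was lowest of the WT Polysome2 libraries.

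The WT calls depended on which cultures were used. With culture as a random replicate block, which takes account of fractions from the same culture, 8 members were called, HIST1H1D, H2AFZ and H1F0 added (limma adjusted p = 0.03645, 0.03559 and 0.03748). That fit applies 1 correlation, 0.326, to all libraries. Deviations of Polysome2 and 80S from their group means correlated at 0.521 to 0.772 within KO cultures, but at 0.0272 to 0.122 within WT cultures. No share of all transcripts called is given for the block fit. Without WT replicate 1 and without WT replicate 2 the count was 0, and without WT replicate 3 or without KO replicate 2 it was 2.

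Within cultures, the Polysome2 minus 80S difference of log2(TPM + 1) was positive in 14 of 15 replacement values in KO and 15 of 15 in WT. For the replication-dependent transcripts it was positive in 12 of 15 values in KO and 13 of 15 in WT, and replicate 3 gave both WT exceptions, HIST1H1E and HIST1H4C. Each 15 is 5 transcripts in 3 cultures, so the values are not independent replicates. No share of all transcripts stands beside these counts. The median transcript was itself higher in Polysome2, by 0.14 in KO and 0.23 in WT. HIST1H1C had 0.10, -0.45 and 0.17 in KO cultures, against 2.45, 2.83 and 0.90 in WT cultures. H1FX had 0.62, -0.34 and 0.71 in KO cultures, against 2.81, 2.75 and 1.86 in WT cultures. For 6 of the 10 members every KO culture lay below every WT culture, HIST1H1C, HIST1H1B, H3F3B, H3F3A, H1FX and H1F0, where 14.9% of all tested transcripts did.

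The KO minus WT difference of Polysome2 against 80S was itself tested. It did not pass for any member (limma), with 0.0901% of all tested transcripts called in either direction and 4551 at an unadjusted p under 0.05. The estimates were negative for all 10, from -2.15 to -0.37, also under quantile, median-of-ratios and ERCC scaling. HIST1H1C was at -2.12 (SE 0.84, limma adjusted p = 0.4361) and H1FX at -2.15 (SE 1.11, limma adjusted p = 0.5839). With culture as a fixed replicate block, an alternative chosen after seeing the data, HIST1H1C passed (limma adjusted p = 0.04351).

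**Figure D4:**
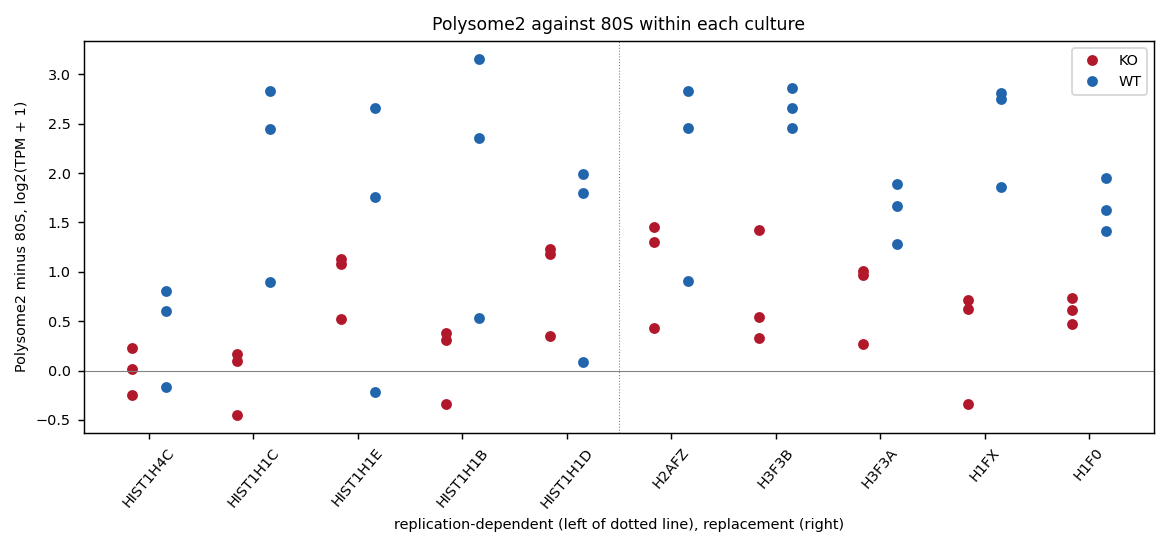
Polysome2 minus 80S difference in log2(TPM + 1) within each culture, 1 point per culture, KO left of WT, with the replication-dependent transcripts left of the dotted line. For HIST1H1C the KO cultures lie between -0.45 and 0.17 and the WT cultures between 0.90 and 2.83.

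KO was compared with WT in each fraction. The single call was HIST1H1C in Polysome2, which had 14.7, 12.6 and 41.3 TPM in KO, against 106, 126 and 69.4 TPM in WT. Its log2 value fell by 2.24 (SE 0.60, limma adjusted p = 0.02787), where 3.62% of all tested transcripts were lower in KO. All 3 KO libraries lay below all 3 WT libraries, and KO replicate 3 was nearest to WT. The call also ended with no filter on low values (limma adjusted p = 0.05057) and in a fit of these 6 libraries alone (limma adjusted p = 0.1734). It ended without KO replicate 1 or KO replicate 2 (log2 -2.04 and -1.94, limma adjusted p = 0.08341 and 0.2545) and without any 1 of the WT replicates (limma adjusted p = 0.05963 to 0.1545). With KO replicates 1 and 2 both left out, which leaves 1 KO library in Polysome2, it was -1.22 (SE 0.58). The fit takes libraries of a culture as independent, so its 24 residual degrees of freedom overstate the replication of this comparison.

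HIST1H1B followed in the same set, with 0.734, 1.93 and 1.31 TPM in KO Polysome2, against 6.73, 9.22 and 1.72 TPM in WT. The libraries overlapped, and the log2 difference was -1.40 (SE 0.46, limma adjusted p = 0.06242). HIST1H1E and HIST1H1D overlapped in all 6 fractions, with log2 differences of -0.42 to 0.35 and -0.31 to 0.46. HIST1H4C had 0.986, 1.14 and 1.18 TPM in KO Polysome1, against 3.11, 2.26 and 1.54 TPM in WT, without overlap (log2 -0.63, SE 0.34, limma adjusted p = 0.2268). HIST1H1C in Input had 9.14, 15.1 and 22.3 TPM in KO, against 26.8, 29.6 and 28.7 TPM in WT, also without overlap (log2 -0.91, SE 0.60, limma adjusted p = 0.2826). KO Input replicates 1 and 2, which gave the lower values, are the libraries that stood apart. Without them, with 1 KO Input library left, the difference was -0.33.

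H2AFZ had the largest KO to WT differences of any member in Input, disome, Polysome1 and Polysome2, and none passed the test. In Input it had 35.0, 121 and 642 TPM in KO, against 661, 766 and 1117 TPM in WT (log2 -2.55, SE 1.01, limma adjusted p = 0.07332). In Polysome2 it had 150, 119 and 628 TPM in KO, against 1318, 1243 and 1263 TPM in WT (log2 -2.50, SE 1.01, limma adjusted p = 0.1216). The groups did not overlap in these fractions, nor in disome and Polysome1, and KO replicate 3 was the highest KO library each time. With culture as a random replicate block H2AFZ passed in Input and disome (limma adjusted p = 0.04177 and 0.04369). Without KO replicate 1 the H2AFZ difference in Input was -1.56 (limma adjusted p = 0.3528). Without the libraries labelled KO Input 1 and 2, which leaves 1 KO Input library, it was -0.37 (SE 1.33). With KO replicates 1 and 2 both left out, H2AFZ was at -1.37 in disome, -1.09 in Polysome1 and -1.02 in Polysome2. Each of these values rests on 1 KO library. H3F3A also split by culture: in Polysome2 it had 161, 185 and 1263 TPM in KO, against 1244, 1112 and 1118 TPM in WT, so that KO replicate 3 was above the WT libraries and the other KO cultures were far below them.

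H3F3B differed in direction between fractions. In 40S it had 40.8, 50.4 and 22.3 TPM in KO, against 6.09, 17.5 and 5.92 TPM in WT, and in 80S 55.2, 62.2 and 60.9 TPM in KO, against 27.3, 25.5 and 34.8 TPM in WT. All KO libraries of these fractions were above all WT libraries. In Input it had 55.3, 73.4 and 92.1 TPM in KO, against 97.8, 118 and 151 TPM in WT, and in Polysome2 80.8, 78.5 and 164 TPM in KO, against 204, 166 and 196 TPM in WT, with all KO libraries below. None of the differences passed the test (limma adjusted p = 0.4035, 0.4022, 0.4046 and 0.3602). The 40S difference passed after median-of-ratios scaling (log2 1.30, limma adjusted p = 0.0358). With ERCC scaling the H3F3B differences were negative in all 4 of these fractions, at -0.64 in 40S, -1.84 in 80S, -3.65 in Input and -6.17 in Polysome2, so the opposite directions hold for shares of each library's RNA and not on that scale.

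H1FX in Polysome2 had 57.8, 75.2 and 281 TPM in KO, against 552, 572 and 279 TPM in WT, with overlap through replicate 3 of each genotype (log2 -2.05, SE 0.78, limma adjusted p = 0.1033). It passed with culture as a random replicate block (limma adjusted p = 0.0377). With KO replicates 1 and 2 both left out, which leaves 1 KO library in Polysome2, it was -0.66. In Input H1FX had 26.4, 49.0 and 109 TPM in KO, against 131, 166 and 114 TPM in WT, without overlap (log2 -1.36). Without the libraries labelled KO Input 1 and 2, which leaves 1 KO Input library, the difference was -0.31. H1F0 overlapped in all 6 fractions, with 52.0, 51.0 and 84.5 TPM in KO Polysome2, against 101, 93.1 and 54.2 TPM in WT.

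Counts of members were read against the background of each fraction. No member was called by limma in Input, 40S, 80S, disome or Polysome1, where 20.0%, 0.0235%, 0.599%, 2.78% and 5.42% of all tested transcripts were called in either direction. At an unadjusted p under 0.05 the numbers over all transcripts were 17560, 2886, 8576, 11047 and 14312. In Input 4 of 10 members had all KO libraries below all WT libraries, where 29.0% of tested transcripts did. The count was 1 in disome (background 13.0%), 2 in Polysome1 (19.6%) and 3 in Polysome2 (13.8%). KO libraries were all above WT libraries for 1 member in 40S (background 8.99%) and 1 in 80S (7.09%), H3F3B each time.

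The medians of the sets were set beside the median of all tested transcripts. In Polysome2 the median log2 fold change of KO over WT was -0.49 in the replication-dependent and -1.78 in the replacement set, against -0.22 over all. In Input the medians were -0.20 and -0.84, against -0.51, and in disome 0.20 and -1.03, against -0.45. These medians changed when libraries that stood apart were left out. Without the libraries labelled KO Input 1 and 2, which leaves 1 KO Input library, those of Input were -0.12 and -0.31. Without KO disome replicate 1 those of disome were -0.25 and -0.07. The medians of all transcripts in these reduced fits are not given. In Polysome1 they were -0.13 and -0.77, against -0.32, in 80S 0.06 and 0.10, against -0.17, and in 40S -0.17 and 1.42, against 0.00. Without WT 40S replicate 3 the medians in 40S were -0.12 and 0.09, with H2AFZ at -0.50 and H1FX at -0.47. All 5 replacement values in 40S were positive with that library included, but H2AFZ and H1FX turned negative with quantile normalization and with median-of-ratios scaling, and all 5 with ERCC scaling. Whether the sets differ from each other in their response was not tested, since the members were chosen with earlier results known.

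**Figure D5:**
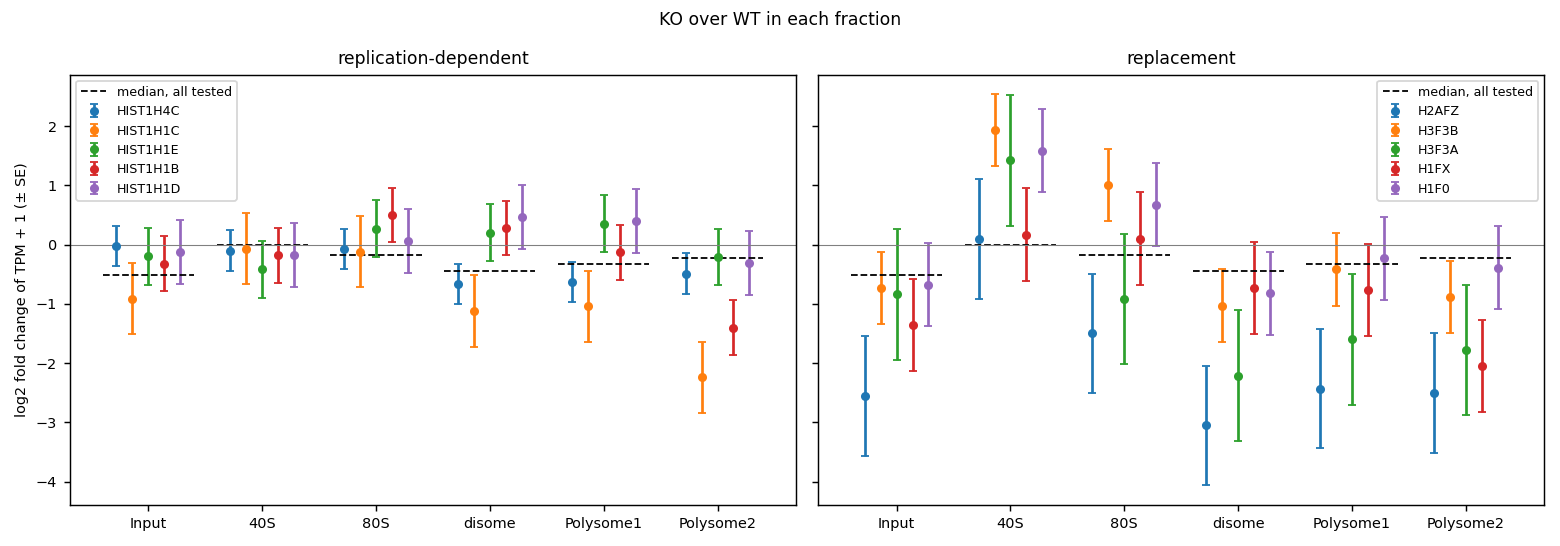
Log2 fold change of TPM + 1 (± SE from the fit) of KO over WT in each fraction for the replication-dependent and replacement transcripts, with a dashed line at the median of all tested transcripts. HIST1H1C in Polysome2, at -2.24, is the 1 value past the threshold, and H2AFZ lies between -3.05 and -2.43 in Input, disome, Polysome1 and Polysome2.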

How the data were processed

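RNA of 36 libraries was sequenced as paired reads of 75 nt, per the labels' protocols. The authors deposited TPM per Ensembl transcript, with kallisto, sleuth and the build hg19 named, without versions, in the submitters' processing notes. The table held 223367 transcripts and 92 ERCC spike-in rows, which were set aside. Transcript IDs were paired with histone genes by a list made for this report, and the members and lists were chosen with earlier results of these data known. The gene table held 59792 genes and 0 Ensembl IDs, so lists planned by gene symbol (other histones, histone mRNA processing, chaperones, cell type markers) were not analysed here. All 10 members matched by older symbol to RefSeq, and 8 had a promoter.

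Transcripts at 1 TPM or more in at least 3 libraries were kept (51052). A model with 12 group means was fitted by limma 3.58.1 (R 4.3.3) to log2(TPM + 1), using a variance trend and 24 residual degrees of freedom, and p-values were Benjamini-Hochberg adjusted over all transcripts within each of 11 comparisons, with a threshold of 0.05. The fit was tested on simulated data. The plan named all members, with full values for those called or without overlap, and the 2 transcripts most like each set. Summaries and figures used Python 3.11.15, numpy 2.4.6, pandas 2.3.3 and matplotlib 3.10.9.

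Libraries of the same genotype and number come, by their labels, from the same culture, which pairs the fractions. Deviations from group means correlated at 0.521 to 0.772 between Polysome2 and 80S of a KO culture and at 0.0272 to 0.122 in WT. Between KO and WT the numbers do not pair, with correlations of -0.709 to 0.107. The pairs 40S and Input (0.0459 to 0.0828) and Polysome2 and Input (0.0683 to 0.213) were checked in WT.

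Alternatives were a pseudocount of 0.1, a filter of 10 TPM or none, quantile, median-of-ratios and ERCC scaling, fits of the compared groups alone, replicate blocks, and left-out cultures.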

Additional observations from a re-analysis of the deposited data

Results flagged for a closer look

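H3F3B had KO and WT libraries that did not overlap in 4 fractions, in opposite directions. KO over WT was 1.93 in 40S and 1.01 in 80S on the log2 scale, and -0.73 in Input and -0.88 in Polysome2. With ERCC scaling all 4 were negative, at -0.64, -1.84, -3.65 and -6.17, so the opposite directions were lost. The difference between the fractions was not tested for 40S and Input, and KO Input replicates 1 and 2 are libraries that stood apart. For Polysome2 against 80S the KO minus WT difference was -1.89 (SE 0.86, limma adjusted p = 0.5167), which did not pass. Groups of 3 are too small for a test of single outlying libraries.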

How the results depend on the processing

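The counts of members called are given here where they differ from the reported count by over 1.5 times. The shares of all tested transcripts called in the same settings are not given. These counts therefore show how the calls depend on the setting and are not results particular to the members. With ERCC scaling KO against WT had 4 in Input, 2 in the 80S fraction, 7 in disome and 10 in each polysome fraction, with 10 in WT for Polysome2 against 80S, 3 for the KO minus WT difference of that comparison and 10 for WT Polysome2 against Input. This scaling put the median of all transcripts at -3.40, against -0.22 without it, in KO against WT Polysome2. ERCC rows took 43.3 to 3589 TPM in KO libraries and 2.55 to 876 TPM in WT libraries, and the scaling turned HIST1H1E and HIST1H1D in Polysome1 to -2.29 and -2.55. In WT 40S against Input, quantile normalization gave 8 calls, 4 replacement transcripts lower and 4 replication-dependent transcripts higher. Its other counts were 2 in KO against WT Polysome2 and 3 for WT Polysome2 against 80S. After median-of-ratios scaling they were 1 in KO against WT 40S, 2 in Polysome2, 2 for WT Polysome2 against 80S and 2 for WT Polysome2 against Input, and in WT 40S against Input HIST1H1C turned to 1.59 and H1FX to 0.64. A pseudocount of 0.1 and a filter of 10 TPM each gave 3 for WT Polysome2 against 80S, and the filter, which left 6 members, gave 0 for WT Polysome2 against Input. With no filter the counts were 0 in KO against WT Polysome2, 3 for WT Polysome2 against 80S and 2 for WT Polysome2 against Input. With only the compared groups fitted they were 0 in KO against WT Polysome2 and 2 for WT Polysome2 against Input.

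With culture as a random replicate block (correlation 0.326) the counts were 1 in KO against WT Input, 1 in disome, 2 in Polysome2, 8 for WT Polysome2 against 80S and 5 for WT Polysome2 against Input. With replicate number as a fixed replicate block they were 1 in Input, 1 in disome and 3 for WT Polysome2 against Input. That block joins KO and WT cultures of the same number, although the numbers do not pair between KO and WT. With culture as a fixed replicate block, added after seeing the data, the counts were 8, 1 and 4 for WT Polysome2 against 80S, its KO minus WT difference and WT Polysome2 against Input. Leaving out 1 culture gave 0 to 2 in KO against WT Input, 0 to 3 in disome, 0 to 2 in Polysome1 and 0 to 5 in Polysome2. Each of these highest counts came without KO replicate 3. The ranges were 0 to 7 for WT Polysome2 against 80S, 2 to 5 for WT 40S against Input and 0 to 3 for WT Polysome2 against Input. Without KO replicates 1 and 2 the count was 3 for WT Polysome2 against Input. That fit leaves 1 KO library in each fraction, so its KO against WT counts are not given. In settings added after seeing the data, leaving out KO disome replicate 1 gave 1 in KO against WT Input, 2 in Polysome2 and 2 for WT Polysome2 against Input, and leaving out WT 40S replicate 3 gave 2 for WT 40S against Input. The causes of these changes were not tested. The gap between the sets kept its sign in 36 of 36 libraries under all 3 alternatives tried.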

Other observations

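The step from Polysome1 to Polysome2 in WT differed between members. The Polysome2 minus Polysome1 difference of log2(TPM + 1) within WT cultures was 2.03, 1.61 and 0.42 for HIST1H1C, 2.12, 2.23 and 0.48 for HIST1H1B, and 1.52, 1.51 and 0.63 for H1FX. It was 0.22, 0.55 and 0.31 for H2AFZ and 0.55, 0.35 and 0.19 for H1F0. HIST1H1E had 1.48, 2.04 and 0.50, HIST1H1D 1.65, 2.33 and -0.40, H3F3A 0.16, 0.29 and 0.71, and H3F3B 0.11, 0.25 and 1.16. HIST1H4C, the core histone of the replication-dependent set, was lower in Polysome2 in all 3 WT cultures, at -0.07, -0.36 and -0.38. The same held in all 3 KO cultures, at -0.03, -0.11 and -0.26. Its values were low, at 0.953 to 2.92 TPM in WT Polysome2. Within KO cultures the step was 0.06, -0.27 and 0.68 for HIST1H1C and -0.06, -0.42 and 0.32 for H1FX. These differences were described after their values were seen and were not tested. No value of this step over all transcripts is given.

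The ratio of the replacement sum to the replication-dependent sum was 31.4, 45.05 and 83.8 in KO Input and 53.5, 63.9 and 79.9 in WT Input. It was 2.60 in KO disome replicate 1 and 3.05 in WT 40S replicate 3, the lowest of the 36 libraries.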
